A study of Mus musculus with 56 samples.

Results

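Day 7 after an injection of 90Sr was examined in the whole blood of 12 mice, 6 injected with the radionuclide and 6 controls, each on its own array, out of 56 arrays in the series. The 12 arrays were those that the sample labels place at day 7, and no measured value was used to choose them. All mice were C57BL/6, about 10 to 12 weeks old on arrival, and the 90Sr mice received 200 kBq as 85/90SrCl2 into the tail vein. Control mice received the vehicle, saline, as the methods state. About 0.4 mL of blood from each mouse was drawn from the heart into 2 mL of PAXgene, a solution that lyses the cells and stabilizes their RNA, and globin transcripts were reduced before labeling. The comparison asked which genes and functions differed between the 6 90Sr mice and the 6 control mice at this day. Mice of the other 4 days (8 arrays at day 4 and 12 at day 9, for example) were different animals with their own controls.

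Strontium follows calcium into mineralized bone, where 90Sr and its daughter yttrium emit beta particles next to the marrow that makes blood cells. Blood RNA is a mixture from red cell precursors and reticulocytes, platelets, neutrophils, monocytes and lymphocytes, and B cells are among the blood cells most readily lost after irradiation. Cells with damaged DNA activate the transcription factor p53, whose targets arrest the cell cycle, repair DNA or start apoptosis. Metallothioneins are small cysteine-rich proteins that bind zinc and other metals, and metals induce their genes through metal response elements in the promoters.

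Because the changes are differences between 2 sets of arrays, the arrays themselves were compared first. Each level is the log2 signal of a probe minus the median of its array, so 0 is the signal of the median probe. Before this centering, the median log2 signal was 4.13 ± 0.18 (SD, n = 6) in the control arrays and 3.54 ± 0.21 in the 90Sr arrays (two-sided exact permutation test, adjusted p = 0.00541 over 5 measures, from the smallest p that 6 against 6 arrays allow). The 75th percentile was 7.11 ± 0.19 and 6.17 ± 0.27 (exact permutation, adjusted p = 0.00541), a larger distance than that of the medians, and spots well above background numbered 19957 ± 1312 and 17953 ± 1356 (exact permutation, adjusted p = 0.0352). The added spike-in RNA read 6.72 ± 0.13 on the control arrays and 8.01 ± 0.94 on the 90Sr arrays (exact permutation, adjusted p = 0.0289). That difference followed the slides: 90Sr replicates 2 to 5, on 1 slide of their own, read 8.47 to 8.72, whereas 90Sr replicates 1 and 6 read 6.59 and 7.05 on a slide shared with control replicates 1 and 2 (6.79 and 6.93). Control replicates 3 to 6 filled another slide and read 6.58 to 6.73. The slide of 90Sr replicates 2 to 5 was also scanned on a day of its own. All 6 control arrays and 90Sr replicates 1 and 6 were scanned on another day. Slide, scan day and 90Sr thus cannot be told apart for replicates 2 to 5. Within the shared slide the median still differed by -0.74 and the 75th percentile by -1.18, with 2 arrays a group. One 90Sr mouse, replicate 3, stood apart, with a mean correlation of its gene deviations with those of its own group of 0.0641, against 0.254 to 0.378 for the other 5.

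The choice of scale decided how the changes were split. With each array centered on its median, limma called 2747 of 18802 genes at an unadjusted p under 0.001 with at least a 2-fold change (14.6%), of which 487 were higher (2.59%) and 2260 lower (12%) in the 90Sr mice. The largest Benjamini-Hochberg adjusted p among the called genes was 0.00311. Centered on the 75th percentile instead, the median change of all genes moved from -0.00092 to 0.35, and 2039 genes were called higher (10.8%) and 653 lower (3.47%). Quantile normalization gave 840 higher (4.47%) and 932 lower (4.96%). All 487 genes called higher and 653 of the 2260 called lower were also called in the same direction on the 75th percentile scale, and no called gene changed sign there. Scaling on the spike-in RNA moved the median of all genes to -1.88, called 14135 genes lower and none higher, and turned 474 of the 487 below zero. Because the spike-in signal followed the slides, that scale was also fitted with the slide as a block, where the median of all genes was -0.74 and 63 of the 487 were below zero. Of all genes tested, 50.1% had an effect below zero on the median scale. With normexp background correction and an offset of 50 added to every signal, 12 genes passed the limits, all lower. The values that follow are on the median scale, so each is a change relative to the median gene, and values on the 75th percentile scale are given for most gene groups. Where only some arrays of a group had a gene well above background, their number is given and the change, set partly against signal near background, is no exact size.

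The 90Sr mice lay outside the range of the control mice for most called genes. All 6 lay above it for 349 of the 487 called higher and below it for 2120 of the 2260 called lower, against 8.45% and 23.6% of all genes tested. With the genes tested divided into 3 equal classes by control level, 334 of the genes called higher were in the dimmest class, against 292 of those called lower. In the middle class 113 were higher and 1295 lower, and in the brightest class 40 were higher and 673 lower. Called lower were thus 5% of the dimmest class, 21% of the middle class and 11% of the brightest class. The median change of all genes in these classes was 0.38, -0.45 and -0.09. Apart from heart muscle, the gene lists described below are set against all genes tested, of which 2.59% were called higher and 12% lower. Whether a list differed from genes of its own level was not tested. Of the genes called higher, 196 were not well above background on any control array, and of those called lower, 265 on no 90Sr array. With the slide as a block, which compares the mice within the shared slide, every called gene kept its sign, and 62 of the 487 and 1258 of the 2260 were called again. The 90Sr arrays of that slide were replicates 1 and 6. Replicate 6 had the largest mean change over the genes called lower, -1.92 against -0.78 to -1.54 in the other 90Sr mice.

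**Figure D1:**
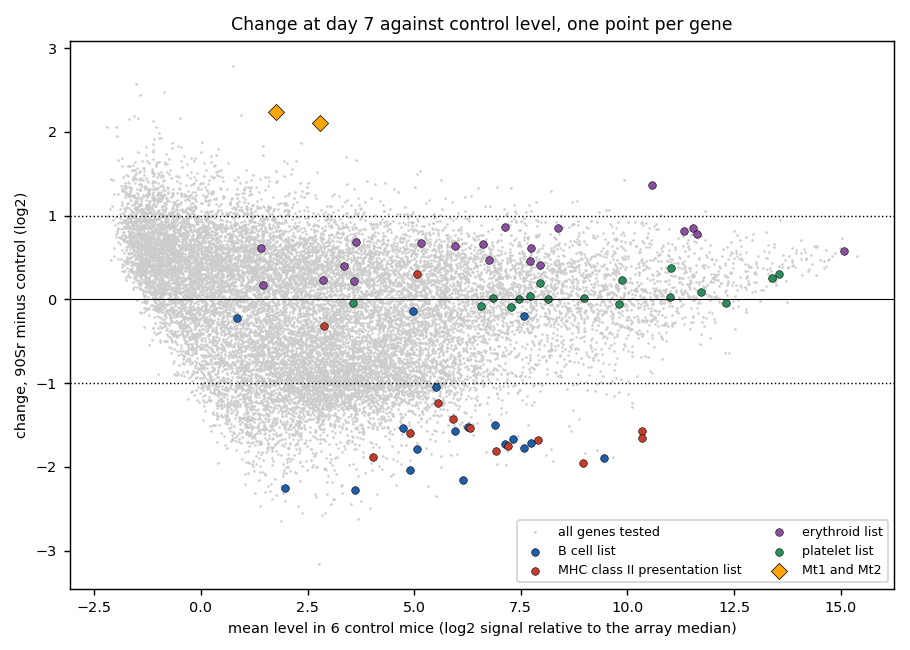
Change of each gene at day 7 (y axis, log2 of 90Sr minus control, 0 is no change relative to the array median) against its mean level in the 6 control mice (x axis, log2 relative to the array median). Each gray point is 1 of 18802 genes, the dotted lines mark a 2-fold change, and color marks the tested genes of 4 lists, with Mt1 and Mt2 as diamonds. Of the B cell list 15 of 18 genes and of the MHC class II list 11 of 13 lie under the lower dotted line, the platelet list lies about 0, and the erythroid list lies above it on this scale, though its median is -1.25 on the spike-in scale (-0.26 with the slide as a block).

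Promoter sequences of some changed genes are printed first, with the letters of an element that a known regulator can bind. The 250 bases before the start of Mt1 and Mt2, the metallothioneins of most tissues, are printed from RefSeq (GRCm38.p6, both on the plus strand) because these were the strongest rises, with the metal response element core in capitals (TGCACNC or TGCGCNC, read on both strands). Those of H2-Aa and H2-Eb1, which encode chains of the MHC class II molecules, are printed because their list fell almost whole, with the Y box CTGATTGG in capitals, an element of class II promoters that the factor NF-Y binds. Mt1 lies at chr8:94178839-94179088, Mt2 at chr8:94172368-94172617, H2-Aa on the minus strand at chr17:34287824-34288073 and H2-Eb1 on the plus strand at chr17:34305617-34305866.
Mt1: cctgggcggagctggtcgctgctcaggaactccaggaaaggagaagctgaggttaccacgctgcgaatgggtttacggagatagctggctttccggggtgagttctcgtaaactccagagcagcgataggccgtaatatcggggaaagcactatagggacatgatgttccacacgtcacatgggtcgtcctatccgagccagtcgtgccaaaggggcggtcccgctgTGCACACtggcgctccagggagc
Mt2: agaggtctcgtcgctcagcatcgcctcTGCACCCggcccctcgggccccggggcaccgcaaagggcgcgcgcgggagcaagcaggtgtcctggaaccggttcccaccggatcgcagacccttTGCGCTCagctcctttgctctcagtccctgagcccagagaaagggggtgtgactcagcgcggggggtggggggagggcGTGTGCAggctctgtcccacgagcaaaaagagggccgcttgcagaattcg
H2-Aa: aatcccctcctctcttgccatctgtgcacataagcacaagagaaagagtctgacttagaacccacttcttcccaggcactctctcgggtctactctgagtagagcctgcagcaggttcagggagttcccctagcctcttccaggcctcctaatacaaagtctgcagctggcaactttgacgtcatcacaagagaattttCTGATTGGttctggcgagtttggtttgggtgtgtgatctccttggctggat
H2-Eb1: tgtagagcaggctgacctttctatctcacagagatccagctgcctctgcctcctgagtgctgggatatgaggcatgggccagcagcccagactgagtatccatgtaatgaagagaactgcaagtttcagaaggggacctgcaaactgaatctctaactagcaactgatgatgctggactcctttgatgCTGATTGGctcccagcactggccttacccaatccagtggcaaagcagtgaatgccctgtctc

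The metal response core was found 3 times in the 300 bases around the start of Mt1 and 4 times around that of Mt2, of which 1 and 3 lie in the printed bases. At least 1 match was present in 25.7% of 32851 mouse promoter windows of the same length and at least 3 in 1.97%. The Y box was found in 4.1% of the windows and in 3 of the 10 tested members of the MHC class II list with a promoter in the table, H2-Aa and H2-Eb1 among them. These matches describe the letters only and do not show that a factor was bound.

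Mt2 and Mt1 showed the largest rises among the called genes that RefSeq names, that were well above background on all 12 arrays and whose groups did not overlap (112 higher and 1060 lower). The log2 level of Mt2 was 1.53, 1.78 and 1.98 in the control mice and 3.62, 4.03 and 4.20 in the 90Sr mice (lowest, median and highest of 6 mice, here and below). It rose by 2.24 ± 0.12 (± SE, here and below; limma, adjusted p = 1.85e-06), or 4.71-fold. Mt1 read 2.38, 2.78 and 3.09 in controls and 4.74, 4.87 and 5.06 in 90Sr mice, a rise of 2.10 ± 0.13 (adjusted p = 3.67e-06, 4.3-fold), although its second probe gave 0.50 and was not called. Every 90Sr mouse exceeded every control mouse for both genes. Within the shared slide the rises were 2.06 and 2.01, and both stayed above zero on every scale, the spike-in scale included (0.35 for Mt2 and 0.22 for Mt1).

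The list of metallothioneins and zinc transporters did not move as a whole. Of its 18 genes tested, 2 rose, which were these metallothioneins, and 4 fell, namely Slc30a4 (-1.52 ± 0.25), Slc30a5 (-1.31 ± 0.18), Slc39a13 (-1.24 ± 0.22) and Slc39a7 (-1.09 ± 0.17). These carry zinc between the cytosol and organelles, the Slc30 members out of the cytosol and the Slc39 members into it. The median of the 18 was -0.38, and -0.03 on the 75th percentile scale. Slc30a4 was well above background on 3 of the 6 90Sr arrays and Slc39a13 on 5.

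The other 13 of the 15 largest rises in that set ranged from 1.38 (Add2) to 1.66 (Peg3as). Cdca3, which helps cells enter mitosis, rose by 1.56 ± 0.14 (adjusted p = 6.98e-05), from 1.91, 2.10 and 2.62 in the controls to 3.38, 3.73 and 3.96 in the 90Sr mice. Crip2, a LIM domain protein, rose by 1.5 ± 0.13, with levels of 4.82, 5.05 and 5.39 against 6.26, 6.58 and 6.79. Add2, the beta adducin of the red cell membrane skeleton, rose by 1.38 ± 0.15, from 3.75, 4.06 and 4.34 to 5.05, 5.47 and 5.84. The groups were apart for all 3. Gabre (1.54 ± 0.19), a GABA receptor subunit, Musk (1.47 ± 0.18), the kinase of the neuromuscular junction, and Kcnk9 (1.46 ± 0.13), a potassium channel, are better known from nerve and muscle. Peg3as (1.66 ± 0.26), an antisense transcript of the imprinted gene Peg3, 4930480K23Rik (1.63 ± 0.26), Fbxo34 (1.46 ± 0.20), Gm813 (1.43 ± 0.19), Adam5 (1.42 ± 0.20), Slco6b1 (1.40 ± 0.23) and Nacad (1.39 ± 0.17) completed them. Apart from the metallothioneins, all of these turned below zero on the spike-in scale, of which 4930480K23Rik alone stayed there with the slide as a block, and within the shared slide they ranged from 0.68 (4930480K23Rik) to 1.46 (Slco6b1). A second probe of Fbxo34 gave 0.01 and one of Gabre 0.52, neither called.

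**Figure D2:**
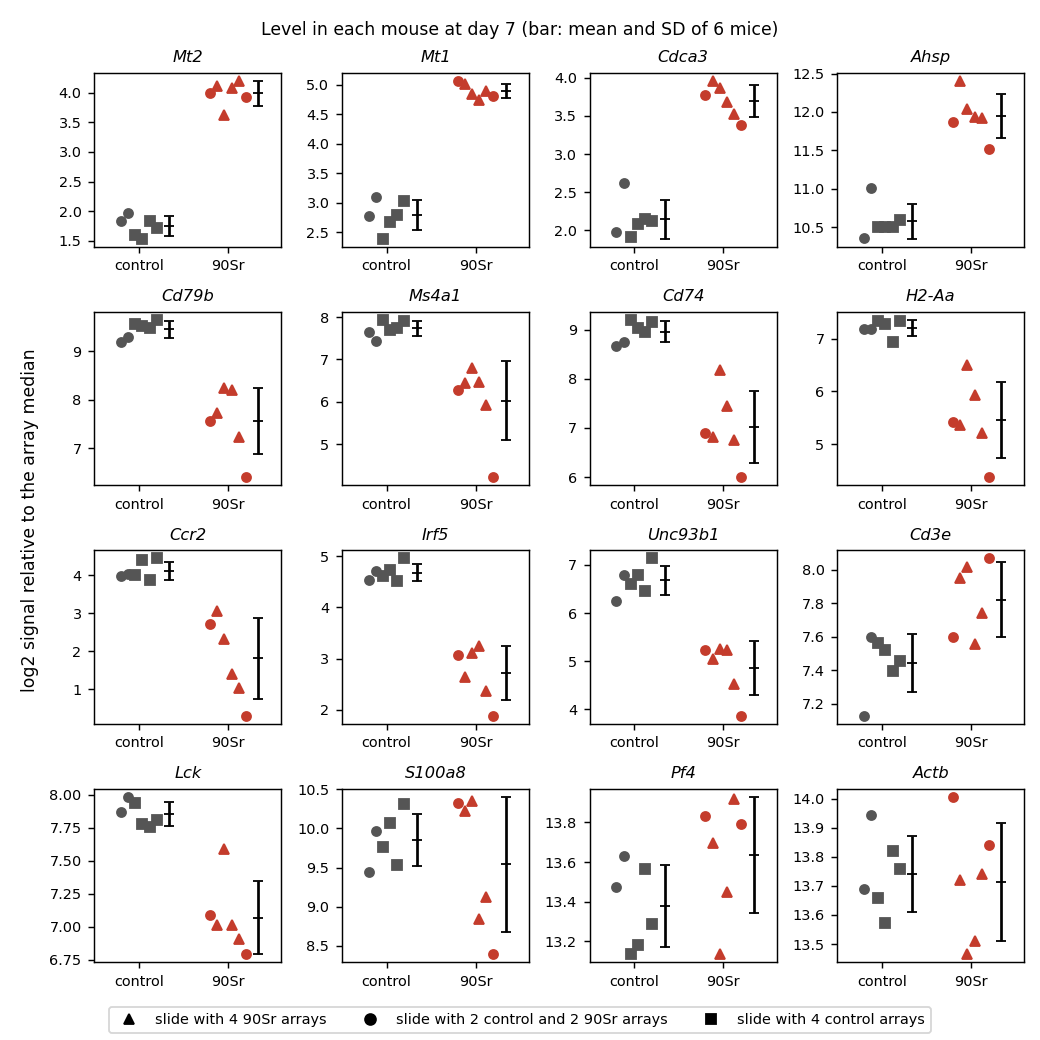
Log2 level relative to the array median (y axis) of 16 genes in each mouse, with control mice in gray, 90Sr mice in red and the mean and SD of each group of 6 as a bar beside the points. Each point is 1 of 12 mice, its shape gives the slide, and each panel has its own y range, which does not start at 0; the 90Sr points of Mt2 lie between 3.62 and 4.20, above all controls.

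B cell genes were prominent among the strongest falls. Of the 18 B cell markers, 15 were called lower and none higher, with a median change of -1.69 against -0.00092 over all genes tested (-1.34 with 13 called lower on the 75th percentile scale). Less RNA of a cell type can come from fewer of its cells or from less RNA in each, and these cannot be told apart in whole blood RNA. Each value is also relative to the array median, so RNA of the other cells bears on it. The paper counted blood cells on smears by hand and reports no significant difference between control and irradiated mice at any time. Its supplement labels these as lymphocyte counts, and no count of B cells alone is described. The mean level of the markers was 5.64 to 5.88 in the control mice and 3.24 to 4.80 in the 90Sr mice, so the groups did not overlap, with 90Sr replicate 6 lowest and replicate 3 highest. Within the shared slide, whose 90Sr arrays were replicate 1 and this lowest replicate 6, the median was -2.16 with the same count of 15 called.

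Cd79b, a signaling chain of the B cell receptor, read 9.20, 9.51 and 9.65 in the control mice and 6.40, 7.65 and 8.25 in the 90Sr mice, and fell by 1.89 ± 0.26 (adjusted p = 0.00016, 3.7-fold lower). The groups were apart. Ms4a1, which encodes CD20, read 7.45, 7.72 and 7.94 against 4.21, 6.37 and 6.80 and fell by 1.71 ± 0.35 (adjusted p = 0.00112), with the lowest value again in replicate 6. Fcrla, an Fc receptor-like protein of B cells, went from 5.87, 6.16 and 6.42 to 2.54, 4.18 and 4.69, and fell by 2.16 ± 0.30 (adjusted p = 0.000152). Fcer2a, the low-affinity IgE receptor CD23, fell by 2.03 ± 0.26. Ebf1 (-2.27 ± 0.53), a factor that sets B cell identity, and the kinase Blk (-2.25 ± 0.40) were called as well, and Ebf1 lost its call when any of 10 of the 12 mice was left out. Pax5 (-0.22 ± 0.23), Cd37 (-0.19 ± 0.11) and Cd22 (-0.14 ± 0.12) were the members not called. Ebf1 was well above background on 5 of the 6 90Sr arrays, Blk on 2 and Pax5 on 3.

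Other genes of B cells ranked with them. Faim3, now named Fcmr, the receptor for IgM, fell by 1.93 ± 0.31, Tnfrsf13c, the receptor for the survival factor BAFF, by 1.87 ± 0.33, Iglv1, an immunoglobulin lambda variable segment, by 1.98 ± 0.29, and Il4i1, an amino acid oxidase induced by interleukin 4, by 1.86 ± 0.36 (largest adjusted p of these, 0.000783). A second probe of Tnfrsf13c gave -0.18. Of 62 tested entries that the array annotation describes as immunoglobulin, a set drawn up after values had been seen, 38 were called lower and none higher, with a median of -1.44 (-1.09 on the 75th percentile scale), and probes for near-identical segments can bind each other's transcripts. Only 16 of the 62 were well above background on all arrays. Among entries for constant segments, kappa (-1.88), mu (-1.96) and lambda 2 (-1.83) were below zero. The entries for gamma 2C (0.48) and epsilon (0.60) were above it, but neither was called. Of 7 plasma cell markers, Irf4 (-1.81 ± 0.27), Mzb1 (-1.42 ± 0.22) and Creld2 (-1.05 ± 0.14) were called lower, whereas Igj, the joining chain of secreted IgM and IgA, read 1.82, 2.41 and 3.15 in controls and 1.82, 2.30 and 3.11 in 90Sr mice (-0.08 ± 0.23, adjusted p = 0.772) and Prdm1, the regulator of plasma cell identity, was not called (-0.75 ± 0.32). The 2 plasma cell markers Sdc1 and Tnfrsf17 did not pass the filter. Irf4 was well above background on 3 of the 6 90Sr arrays. For Prdm1 these arrays numbered 3 in the controls and 1 in the 90Sr mice.

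The signaling chain below the B cell receptor was lower in part. Of 21 genes tested, 11 were called lower and none higher, with a median of -1.06 (-0.71 with 7 called on the 75th percentile scale). Blk and Fcgr2b led; Fcgr2b, the inhibitory Fc receptor, fell by 1.98 ± 0.29 (adjusted p = 0.000187). Btk, the kinase that is defective in agammaglobulinemia, fell by 1.06 ± 0.14 and lost its call without 90Sr replicate 6, and Syk, the kinase that starts the chain, was at -0.84 ± 0.10 with the groups apart but below the 2-fold limit. Fcgr2b was well above background on 5 of the 6 90Sr arrays.

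MHC class II genes, which present peptides to helper T cells and are carried by B cells, dendritic cells and some monocytes, fell almost as a block. Of 13 tested, 11 were called lower, with a median of -1.59 (-1.25 with 10 called on the 75th percentile scale), and the mean level was 6.52 to 6.80 in controls and 4.32 to 5.94 in 90Sr mice. Cd74, the invariant chain, went from 8.67, 8.99 and 9.20 to 5.99, 6.86 and 8.17 and fell by 1.95 ± 0.28 (adjusted p = 0.000187). H2-Aa read 6.94, 7.23 and 7.34 against 4.37, 5.39 and 6.51, and fell by 1.74 ± 0.27, and H2-Eb1, chosen after its values were seen, 10.08, 10.37 and 10.61 against 7.49, 8.72 and 9.51, and fell by 1.66 ± 0.26 (adjusted p = 0.000256 and 0.000273). All 6 90Sr mice were below all controls for the 3 genes. H2-Ab1 (-1.57 ± 0.30), with both of its probes, and H2-DMb2 (-1.89 ± 0.33), which helps load peptides, were called as well. Ciita (-0.32 ± 0.22), the class II transactivator, and Rfxank (0.30 ± 0.11), regulators of these genes, were the members not called. These genes moved with the B cell markers, and how much of the fall each cell type carried was not tested. H2-DMb2 was well above background on 5 of the 6 90Sr arrays.

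The machinery of MHC class I, which nearly all cells carry, was lower to a smaller degree. Of 13 genes, 6 were called lower, with a median of -0.88 (-0.53 with 2 called on the 75th percentile scale). Tap1, part of the peptide transporter, fell by 1.5 ± 0.22 and H2-K1, a classical heavy chain, by 1.10 ± 0.15, while H2-D1 was at -0.84 ± 0.16 and was not called. Psmb8 (-1.35 ± 0.20), Psmb9 (-1.34 ± 0.21) and Psmb10 (-1.18 ± 0.20), the catalytic subunits of the immunoproteasome, were called lower, though a second probe of Psmb9 gave -0.23. They were 3 of the 6 genes called lower among 37 proteasome subunits (median -0.67, and -0.32 with 1 called on the 75th percentile scale), a share near the 12% of all genes called lower, where Psmc3 was at -0.24 ± 0.10 and Psmd4 at 0.49 ± 0.14, neither called. Tap1 was well above background on 2 of the 6 90Sr arrays.

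Markers of monocytes, dendritic cells and basophils included some of the largest falls. Ccl9, a chemokine made by myeloid cells, had the largest fall of the set described for Mt2 (called, named in RefSeq, well above background on all arrays, groups apart), from 5.16, 5.53 and 5.85 in controls to 2.05, 3.03 and 4.36 in 90Sr mice (-2.35 ± 0.35, adjusted p = 0.000213, 5.08-fold lower). Ccr2, the receptor that brings monocytes out of the marrow, went from 3.88, 4.02 and 4.46 to 0.29, 1.87 and 3.06 and fell by 2.32 ± 0.40 (adjusted p = 0.000405). The groups were apart for both. Cx3cr1, the fractalkine receptor, fell by 1.89 ± 0.25 with its 3 probes at -1.89, -2.83 and -2.11, and Ms4a6c by 1.88 ± 0.21. Of 14 monocyte markers, 5 were called lower, Nr4a1 (-1.21 ± 0.17) among them, with a median of -1.01 (-0.66 with 3 called on the 75th percentile scale). Csf1r, the receptor for colony-stimulating factor 1, was not among them and its 3 probes disagreed (0.55, 0.17 and -1.07). At an adjusted p under 0.05, 8 of the 14 markers were lower and 1 higher, against 33.5% and 24% of all genes. With the slide as a block, 2 of the 14 were called lower. Ccr2 was well above background on 4 of the 6 90Sr arrays.

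Cd209a, a lectin of dendritic cells, read 2.32, 2.78 and 3.28 in the control mice and was not well above background on any 90Sr array (-1.37, -0.68 and 1.12), which made it at least 4.65-fold lower (adjusted p = 0.000131). Such a bound sets the control mean against the lowest signal counted as well above background. Bst2 (-1.37 ± 0.18), also an interferon-stimulated gene, and Tcf4 (-1.16 ± 0.16), which drives plasmacytoid dendritic cells, were the other 2 of 10 dendritic cell markers called lower (median -0.67, and -0.33 with 2 called on the 75th percentile scale), and Flt3 (-0.40 ± 0.13) and Itgax (-0.61 ± 0.17) were not called. Of the 10, 6 were lower and 2 higher at an adjusted p under 0.05, and 2 were called lower with the slide as a block. Fcer1a, the IgE receptor chain of basophils and mast cells, was well above background on all 6 control arrays and on no 90Sr array, at least 1.77-fold lower, and Cpa3, a granule protease of the same cells, at least 1.5-fold lower. With Il5ra (-1.03 ± 0.21), the interleukin 5 receptor of eosinophils, they were the 3 called of 9 eosinophil and basophil markers (median -0.87, and -0.52 with 2 called on the 75th percentile scale), among which the eotaxin receptor Ccr3 was at -0.87 ± 0.20. Of the 9, 6 were lower and none higher at an adjusted p under 0.05, and 1 was called lower with the slide as a block. Flt3 was well above background on 4 of the 6 90Sr arrays and Il5ra on 5.

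Further falls among the 15 largest of the set were of genes shared by several white cells. Irf5, an interferon regulatory factor below Toll-like receptors, read 4.52, 4.67 and 4.97 in controls and 1.87, 2.86 and 3.24 in 90Sr mice, and fell by 1.97 ± 0.21 (adjusted p = 0.000108). Chst3, a sulfotransferase, went from 5.14, 5.34 and 5.55 to 1.94, 3.10 and 3.87 and fell by 2.23 ± 0.28. Rnase6 (-2.10 ± 0.27), an antimicrobial ribonuclease, and Plac8 (-1.86 ± 0.26), a small cysteine-rich protein of white cells, were called as well. For each of these the 6 90Sr mice were below all 6 controls.

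T cell, NK cell, neutrophil and platelet markers passed the calling limits in only 1 case. None of 20 T cell markers was called in either direction (14 lower and 2 higher at an adjusted p under 0.05, against 33.5% and 24% of all genes), with a median of -0.70 (-0.35 on the 75th percentile scale). Cd3e was at 0.38 ± 0.13 (adjusted p = 0.022) and Cd3d at -0.68 ± 0.22 (adjusted p = 0.0168), 2 chains of the same receptor complex with opposite signs on the median scale. Lck, the kinase of that complex, was at -0.79 ± 0.13 with all 90Sr mice below the controls, and Cd8a was at -0.86 ± 0.18 and Bcl11b at -0.93 ± 0.29. The mean level of the T cell markers was 5.06 to 5.26 in controls and 4.46 to 5.13 in 90Sr mice, with replicate 3 the highest and inside the control range. Without that mouse the median was -0.82. Of 19 genes of T cell receptor signaling, 6 were called lower (median -0.62, and 2 called on the 75th percentile scale), including Ptprc, the phosphatase CD45 of all white cells (-1.42 ± 0.18), and Cblb (-1.37 ± 0.25), whose second probe gave 0.88. Fyn was at -0.22 ± 0.15. Cblb was well above background on 3 of the 6 90Sr arrays.

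None of 15 NK cell markers was called (8 lower and 1 higher at an adjusted p under 0.05, against 33.5% and 24% of all genes), with a median of -0.58 (-0.23 on the 75th percentile scale). Klrd1 was at -0.76 ± 0.16, Ncr1 at -0.66 ± 0.25 and Klrb1c at -0.58 ± 0.21, while Klrk1 was well above background on 4 control arrays and no 90Sr array. Of 15 mature neutrophil markers (median -0.37, and -0.02 with none called on the 75th percentile scale) only Ly6g was called (-1.04 ± 0.15), and it lost the call without control replicate 6 or 90Sr replicate 5. S100a8 read 9.44, 9.87 and 10.31 in controls and 8.39, 9.67 and 10.34 in 90Sr mice and S100a9 11.23, 11.66 and 12.09 against 10.21, 11.72 and 12.35, so the groups overlapped for both calprotectin subunits (adjusted p = 0.451 and 0.804). Mmp9 was at -0.94 ± 0.31. Of the primary granule proteins, Elane was at -0.06 ± 0.31, Prtn3 at 0.91 ± 0.15 and Ctsg at 0.65 ± 0.18, none called, and on all 12 arrays Mpo fell short of being well above background. Of the stem and progenitor list, Ly6a (-1.46 ± 0.21), which T cells also express, and Myb (-1.03 ± 0.20) were called lower, and Cd34 was at 0.75 ± 0.38. Ncr1 was well above background on 5 of the 6 90Sr arrays, Ly6g on 5, Mmp9 on 5 and Myb on 5. For Prtn3 these arrays numbered 1 in the controls and 2 in the 90Sr mice. For Cd34 these arrays numbered 5 in the controls and 4 in the 90Sr mice.

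None of 17 platelet markers was called or passed an adjusted p of 0.05, and their median was 0.02 (0.36 on the 75th percentile scale and -0.06 after quantile normalization). Pf4, a platelet chemokine, read 13.13, 13.38 and 13.63 in controls and 13.13, 13.74 and 13.92 in 90Sr mice, and Ppbp 12.04, 12.32 and 12.55 against 11.96, 12.29 and 12.51. Clec1b was at 0.37 ± 0.15 and Gng11 at 0.30 ± 0.14. The groups overlapped for all 4.

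Red cell markers leaned the other way on all but the spike-in scale. All 20 had a value above zero on the median scale and 17 passed an adjusted p of 0.05 (24% of all genes did so in that direction), with a median of 0.63 (0.98 on the 75th percentile, 0.60 after quantile normalization, but -1.25 on the spike-in scale and -0.26 there with the slide as a block). Only Ahsp, the chaperone of alpha globin, passed the 2-fold limit. It read 10.35, 10.50 and 11.02 in controls and 11.52, 11.93 and 12.40 in 90Sr mice and rose by 1.37 ± 0.15 (adjusted p = 0.00011), with the groups apart and a value of -0.51 on the spike-in scale. Rhd was at 0.86 ± 0.12 and Klf1, the factor of the red cell lineage, at 0.62 ± 0.16. The mean level was 6.80 to 7.23 in controls and 7.39 to 7.80 in 90Sr mice. Of 23 genes of heme synthesis and iron handling, 14 were higher at an adjusted p under 0.05 and Urod, an enzyme of the heme pathway, was the only one called (1.18 ± 0.14, levels 8.65, 8.75 and 9.26 against 9.65, 10.03 and 10.33), with a median of 0.46 (0.81 with 6 called on the 75th percentile scale) that became -1.42 on the spike-in scale and -0.26 there with the slide as a block. Alas2, the first enzyme of heme synthesis in red cells, was at 0.58 ± 0.12, and Slc25a37, which brings iron into mitochondria, at 0.95 ± 0.11. Alas1 was at 0.77 ± 0.14, with a second probe at -1.0.

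Heart muscle transcripts were checked because the blood was drawn from the heart. Of 8 markers tested, all had a value above zero (median 0.73 against 0.38 over all genes of the dimmest class, 1.07 with 3 called on the 75th percentile scale, -1.16 on the spike-in scale and -0.0070 there with the slide as a block), and Tnnt2, cardiac troponin T, was called (at least 1.02-fold higher). It was well above background on no control array and on 1 90Sr array. Myh6, the cardiac myosin heavy chain, read -0.48, 0.18 and 1.32 in controls and 0.17, 1.52 and 3.41 in 90Sr mice (1.26 ± 0.47, adjusted p = 0.0329). The mean level of the 8 was 0.26 to 0.57 in the control mice and 0.82 to 2.12 in the 90Sr mice. Their part in the other rises of dim genes was not tested. Myh6 was well above background on 2 control and 4 90Sr arrays.

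**Figure D3:**
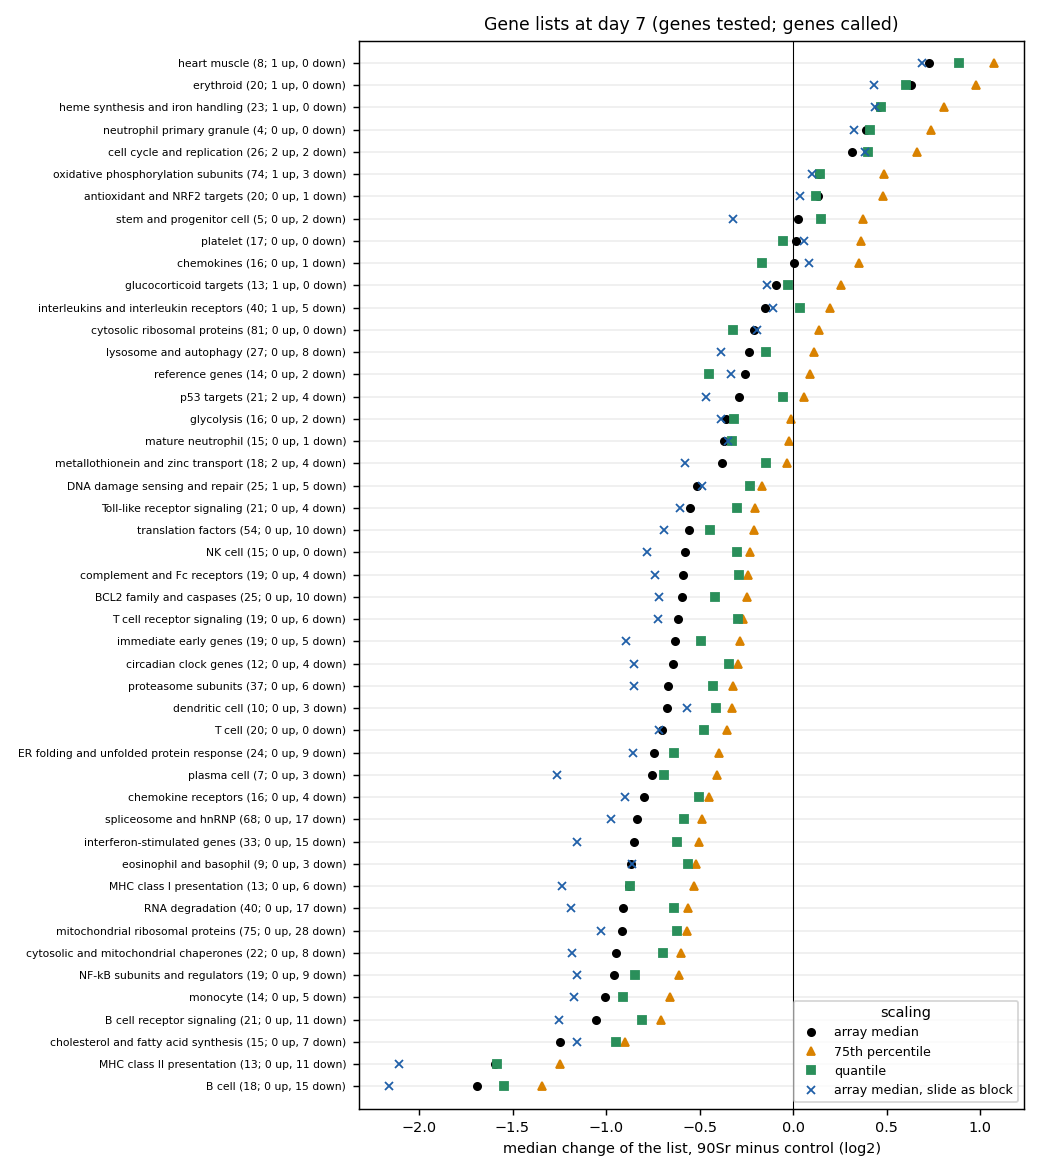
Median change (x axis, log2 of 90Sr minus control at day 7) of the tested genes of each list (y axis), on the median scale (circles), on the 75th percentile scale (triangles), after quantile normalization (squares) and with the slide as a block (crosses). The numbers of genes tested, called higher and called lower on the median scale stand beside each name; the B cell list lies at -1.69, -1.34, -1.55 and -2.16, and the erythroid list above zero under these 4, though below it on the spike-in scale.

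Innate immune genes were lower in part, with none called higher in the lists of Toll-like receptor signaling, interferon-stimulated genes and NF-kB. Of all genes tested, 12% were called lower and 2.59% higher. Of 33 interferon-stimulated genes, 15 were called lower (median -0.85, and 4 called with a median of -0.50 on the 75th percentile scale). Gbp3, a guanylate-binding protein, read 3.48, 3.74 and 4.01 in controls and 1.39, 2.15 and 2.42 in 90Sr mice and fell by 1.65 ± 0.17 (adjusted p = 9.72e-05), with the groups apart. Oas2, which senses double-stranded RNA, fell by 1.82 ± 0.38 but lost its call without control replicate 2 or 90Sr replicate 4. Isg15 (-0.10 ± 0.17) and Ifit1 (-0.58 ± 0.17), both strongly induced by interferon, were not called. Of 21 genes of Toll-like receptor signaling, Unc93b1, Tlr1, Irak3 (-1.36 ± 0.21) and Tlr2 were called lower (median -0.55, and -0.20 with 3 called lower and 1 higher on the 75th percentile scale). Unc93b1, which carries nucleic acid-sensing receptors to endosomes, went from 6.26, 6.70 and 7.14 to 3.87, 5.13 and 5.25 and fell by 1.82 ± 0.24 (adjusted p = 0.000135, 3.53-fold lower). Tlr1 fell by 1.65 ± 0.23 and Tlr2 by 1.34 ± 0.21, receptors that act as a pair on bacterial lipopeptides. Oas2 was well above background on 5 of the 6 90Sr arrays, Irak3 on 4 and Tlr2 on 5.

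Of 19 NF-kB subunits and regulators, 9 were called lower, with a median of -0.96 (-0.61 with 4 called on the 75th percentile scale). They included the precursor subunits Nfkb1 (-1.53 ± 0.29) and Nfkb2 (-1.41 ± 0.18) and the inhibitor Nfkbie (-1.57 ± 0.21). Of 16 chemokine receptors, Ccr2, Cx3cr1, Ccr6 (-1.46 ± 0.30) and Cxcr5, which guides B cells to follicles (-1.84 ± 0.25), were called lower, while Ccr7 was at -0.81 ± 0.23. Ccl9 was the only one called of 16 chemokines, with Ccl3 at -1.46 ± 0.40. Of 40 interleukins and their receptors (median -0.15, but 0.20 with 4 called higher and 2 lower on the 75th percentile scale), 5 were called lower, a share near the 12% of all genes, among them Il2rg, the common gamma chain (-1.38 ± 0.19), and Il1rap, the coreceptor of interleukin 1, was called higher (1.04 ± 0.17, and -0.85 on the spike-in scale). Il2 was well above background on no control array and on 5 90Sr arrays (-0.34, 1.71 and 2.97), at least 2.66-fold higher, but its p did not reach the limit (adjusted p = 0.0101). Il1b was at -0.08 ± 0.32 and Il15ra at 0.55 ± 0.16. Of 19 complement and Fc receptor genes, Fcer2a, Fcgr2b, Cd55 (-1.84 ± 0.32) and Cr2 (-1.04 ± 0.15) were called lower, against 12% of all genes. C1qb was at 0.38 ± 0.22 and C2 at 0.30 ± 0.21. Nfkb1 was well above background on 2 of the 6 90Sr arrays and Ccl3 on 4. For Il1rap these arrays numbered 4 in the controls and 6 in the 90Sr mice. For C2 these arrays numbered 3 in the controls and 5 in the 90Sr mice.

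Genes of the response to DNA damage moved in both directions on the median scale. Of 21 p53 targets tested, 2 were called higher and 4 lower, against 2.59% and 12% of all genes. Their median of -0.29 became 0.06 on the 75th percentile scale. Cdkn1a, which encodes the cell cycle inhibitor p21, was not well above background on any control array and on 1 90Sr array, with levels of -1.37, -1.29 and -1.09 in controls and -0.17, 0.37 and 1.10 in 90Sr mice (adjusted p = 0.000115). It was at least 1.2-fold higher, the groups were apart, and its value on the spike-in scale was -0.23. Psrc1, a spindle protein, was called higher (1.07 ± 0.19, and -0.81 on the spike-in scale). The genes called lower were Btg2 (-1.12 ± 0.20), an antiproliferative gene, Pmaip1 (-1.22 ± 0.21), the proapoptotic Noxa, and 2 genes well above background on 4 control arrays and no 90Sr array, Rrm2b (at least 1.07-fold lower) and 9630033F20Rik, now named Tigar (at least 1.32-fold lower). Psrc1 was well above background on 5 control and 6 90Sr arrays.

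Other p53 targets used as radiation markers were not called. Ccng1 read 3.16, 3.29 and 3.43 in controls and 3.01, 3.34 and 3.42 in 90Sr mice (-0.03 ± 0.11, adjusted p = 0.835). Bbc3, the proapoptotic Puma, was at -0.12 ± 0.18 (adjusted p = 0.57) and Mdm2, the ligase that degrades p53, at -0.19 ± 0.12 (adjusted p = 0.195), and for all 3 the groups overlapped. Ddb2, which recognizes ultraviolet damage, was at -0.77 ± 0.17 (adjusted p = 0.00184), with the 90Sr mice below the controls.

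Of 25 genes of damage sensing and repair, 5 were called lower and 1 higher, against 12% and 2.59% of all genes. Their median was -0.51 (-0.17 on the 75th percentile scale). Parp1, which marks strand breaks with ADP-ribose, went from 3.56, 3.65 and 4.02 to 0.93, 1.96 and 2.95 and fell by 1.74 ± 0.26 (adjusted p = 0.000194), with the groups apart. Atm, the kinase that signals double-strand breaks, was at least 1.21-fold lower, and the ligase Lig4 was well above background on 4 control arrays and no 90Sr array, with no bound above 1. Ercc1 (-1.05 ± 0.16) was called lower as well. Atr, the kinase that answers stalled replication, was called higher by its brightest probe (1.07 ± 0.18) but its second probe gave -1.02, and the value was negative on the spike-in scale (-0.81), after normexp background correction (-0.66) and in the authors' values (-1.06). Ercc1 was well above background on 4 of the 6 90Sr arrays.

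The cell cycle list held a pair of calls in each direction on the median scale. Of 26 tested, Cdca3 and the cyclin Ccnb2 (1.10 ± 0.13, and -0.78 on the spike-in scale) were called higher, and Mcm3 (-1.05 ± 0.17) and Mcm4 (-1.01 ± 0.16), 2 subunits of the replicative helicase, lower. Mki67, a marker of cycling cells, was at 0.99 ± 0.13 and Top2a at 0.90 ± 0.17, with the 90Sr mice above the controls for both, and Cdk1 was at 1.40 ± 0.38. The median was 0.31 (0.66 on the 75th percentile scale, -1.57 on the spike-in scale and -0.31 there with the slide as a block), and 8 were called higher and none lower on the 75th percentile scale. Of 25 BCL2 family and caspase genes, 10 were called lower and none higher (median -0.59, and 4 called on the 75th percentile scale). Apaf1, the core of the apoptosome, was called lower (-1.83 ± 0.34), with replicate 2 of the 90Sr mice inside the control range, as was the caspase inhibitor Birc3 (-1.85 ± 0.34). Bcl2 was at -0.19 ± 0.17, and Bcl2l1, the survival gene of late red cell precursors, at 0.70 ± 0.11 with the groups apart. Apaf1 was well above background on 1 of the 6 90Sr arrays and Birc3 on 2. For Top2a these arrays numbered 3 in the controls and 6 in the 90Sr mice. For Cdk1 these arrays numbered 1 in the controls and 5 in the 90Sr mice.

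Ribosomal protein genes of the cytosol and of mitochondria gave different counts. None of 81 cytosolic ribosomal protein genes was called, with a median of -0.21 (0.14 on the 75th percentile scale), and single members ranged from Rps18 (-0.99 ± 0.19) and Rpl18 (-0.99 ± 0.18) to Rpl41 (0.63 ± 0.13). Of 75 mitochondrial ribosomal protein genes, 28 were called lower and none higher, with a median of -0.91 (-0.57 with 2 called lower and 2 higher on the 75th percentile scale). Mrps2 (-1.77 ± 0.32) and Mrpl50 (-1.5 ± 0.23) were among those called. Of 74 oxidative phosphorylation subunits, 3 were called lower, a smaller share than the 12% of all genes, all of complex I (among them Ndufs8 at -1.17 ± 0.17 and Ndufc2 at -1.05 ± 0.19), and Cox6b2, an isoform known from testis, was called higher (1.33 ± 0.17, and -0.55 on the spike-in scale), with a list median of 0.14. On the 75th percentile scale 12 subunits were called higher and none lower, with a median of 0.49. Mrps2 was well above background on 2 of the 6 90Sr arrays and Mrpl50 on 3.

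Of 68 spliceosome and hnRNP genes, 17 were called lower and none higher (median -0.84), but none was called lower on the 75th percentile scale (median -0.49). Srsf9, a splicing factor, fell by 1.31 ± 0.19. Of 40 genes of RNA degradation, 17 were called lower and none higher (median -0.91, and -0.56 with 3 called lower on the 75th percentile scale). Exosc4, a subunit of the exosome, fell by 1.39 ± 0.24 and the helicase Dhx36 by 1.46 ± 0.25. Of 54 translation factors, 10 were called lower, against 12% of all genes (median -0.55, and -0.21 with 2 called lower and 1 higher on the 75th percentile scale). Among them were Eif2a (at least 1.4-fold lower) and Eif4e3, which was well above background on 4 control arrays and no 90Sr array. Exosc4 was well above background on 5 of the 6 90Sr arrays and Dhx36 on 3.

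Protein folding genes were lower in part. Of 24 genes of endoplasmic reticulum folding and the unfolded protein response, 9 were called lower (median -0.75, and 4 on the 75th percentile scale). Hsp90b1, the chaperone of that compartment, went from 6.13, 6.27 and 6.50 to 4.11, 4.94 and 5.15 and fell by 1.48 ± 0.16 (adjusted p = 0.00011), Pdia6 by 1.53 ± 0.22 and the ligase Syvn1 by 1.49 ± 0.21, while Hspa5 was at -0.91 ± 0.18 with the groups apart. Of 22 cytosolic and mitochondrial chaperones, 8 were called lower (median -0.95, and 1 on the 75th percentile scale), including Hsf1, the heat shock factor (-1.23 ± 0.15), and Cct4, of the actin-folding chaperonin (-1.39 ± 0.19). Hspa8 was at -0.97 ± 0.19.

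Metabolic genes were lower in part. Of 15 genes of cholesterol and fatty acid synthesis, 7 were called lower and none higher, with a median of -1.25 (-0.90 with 3 called on the 75th percentile scale). Hmgcs1, an early enzyme of the pathway, fell by 1.25 ± 0.19, and Srebf2, its transcription factor, by 1.98 ± 0.45 with a call that was lost when any of 9 mice was left out. Of 27 genes of lysosome and autophagy, 8 were called lower (median -0.24, and 0.11 with 2 called on the 75th percentile scale). Ctsh (-1.63 ± 0.26), a cysteine protease, and Ctsa (-1.20 ± 0.18) were among them, while Ctsb was at 0.63 ± 0.14. Of 16 glycolysis genes (median -0.36, and -0.01 with none called on the 75th percentile scale), 9 were lower at an adjusted p under 0.05, against 33.5% of all genes. Hk3 (-1.28 ± 0.31) and Pfkp (-1.19 ± 0.15) were called lower, a share near the 12% of all genes, and Hk1 was at 0.24 ± 0.14. Hk3 kept its call in only 2 of the 12 fits that leave out a mouse. Srebf2 was well above background on 4 of the 6 90Sr arrays, Hk3 on 2 and Pfkp on 3.

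Among stress and timing genes, oxidant defense hardly passed the limits. Of 20 antioxidant genes and targets of NRF2, Keap1, the repressor of NRF2, was the only one called (-1.16 ± 0.20), whereas on the 75th percentile scale 3 were called higher and none lower. Hmox1 was at 0.08 ± 0.24 (adjusted p = 0.787) and Nqo1 at 0.80 ± 0.16 (adjusted p = 0.00109). Of 19 immediate early genes, 5 were called lower: Egr1, Zfp36, Klf2 (-1.32 ± 0.20), Ier2 (-1.24 ± 0.16) and Nr4a1 (median -0.63, and -0.28 with 2 called lower and 1 higher on the 75th percentile scale). Egr1, a growth response factor, read 0.91, 1.44 and 2.96 in controls and -1.61, -0.30 and 0.29 in 90Sr mice and was called lower (-2.20 ± 0.41, adjusted p = 0.00067), and Zfp36, which destabilizes cytokine transcripts, fell by 2.00 ± 0.39. Fos was at 0.81 ± 0.31 and Fosb at 0.28 ± 0.11. Of 13 glucocorticoid targets, Zbtb16 was called higher (1.01 ± 0.20, and -0.87 on the spike-in scale), a call kept in 5 of 12 fits that leave out a mouse, with Tsc22d3 at -0.02 ± 0.16, Fkbp5 at 0.51 ± 0.13 and Errfi1 well above background on 4 control arrays and no 90Sr array. Of 12 clock genes, Arntl (-1.25 ± 0.24), Nr1d2 (-1.20 ± 0.24), Cry2 (-1.15 ± 0.24) and the dim Bhlhe40 (at least 1.07-fold lower) were called lower, none of them on the 75th percentile scale, with Per1 at -0.82 ± 0.20. Ier2 was well above background on 2 of the 6 90Sr arrays, Egr1 on 1, Zfp36 on 3, Arntl on 2, Nr1d2 on 4 and Cry2 on 4. For Fos these arrays numbered 5 in the controls and 5 in the 90Sr mice.

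Genes often used as references were not all steady. Of 14, Hprt (-1.05 ± 0.17) and Tbp (-1.04 ± 0.23) were called lower, a share near the 12% of all genes, and on the 75th percentile scale neither was. Actb read 13.57, 13.72 and 13.94 in controls and 13.46, 13.73 and 14.01 in 90Sr mice (-0.03 ± 0.12, adjusted p = 0.851). Gapdh was at 0.48 ± 0.14 by its brightest probe, and its other 6 probes lay between -0.33 and -0.16. Tbp was well above background on 5 control and 1 90Sr arrays.

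The changes at day 7 were then set against those of the other days. In a limma fit of all 56 arrays, no gene had an effect at day 7 that differed from the mean effect of days 4, 9, 25 and 30 at an adjusted p under 0.05 (0%), and 1452 did at an unadjusted p under 0.05. Against day 4 alone the count was also 0, with 1014 at an unadjusted p under 0.05. Against day 9 alone, 83 genes differed (0.441%), 52 with a higher and 31 with a lower effect at day 7, but none did with the slide as a random block. Meis2, a homeobox gene named here after its values were seen, was at 1.93 ± 0.38 at day 7 and -1.47 at day 9. 4930480K23Rik was at 1.63 ± 0.26 and -1.32, and Fbxo34 at 1.46 ± 0.20 and -1.39. 2810040C05Rik, also chosen after its values were seen, went the other way (-1.01 ± 0.17 and 0.54). 2810040C05Rik was well above background on 1 of the 6 90Sr arrays. For Meis2 these arrays numbered 1 in the controls and 5 in the 90Sr mice.

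The medians of the lists at the 5 days stand side by side. The median change of the B cell markers was -1.69 at day 7, against -2.13 (day 4), -2.03 (day 9), -2.37 (day 25) and -2.35 (day 30), and that of MHC class II, in order of the days, -1.97, -1.59, -2.04, -2.32 and -2.23. Interferon-stimulated genes were at -0.57, -0.85, -0.64, -0.99 and -0.62, and red cell markers at 0.54, 0.63, 1.13, 0.50 and 1.24. No member of any list differed at day 7 from the mean of the other days. The change of Mt2 on the other 4 days was 1.97 (day 4), 2.76 (day 9), 2.10 (day 25) and 2.01 (day 30). For single genes of the interferon list, Ifit1 and Isg15 had effects at day 7 of -0.63 and -0.69 relative to the other days' mean (adjusted p = 0.493 and 0.493).

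**Figure D4:**
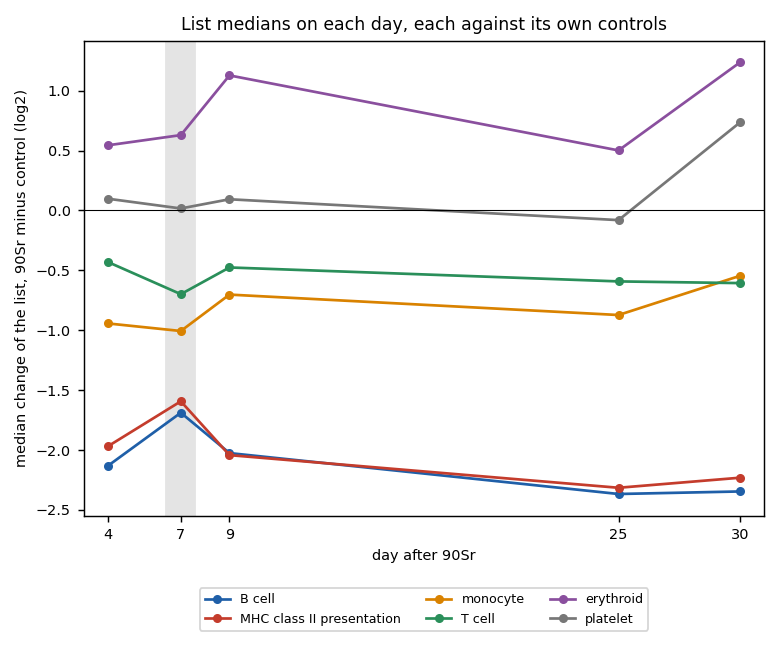
Median change (y axis, log2 of 90Sr minus control of the same day) of the tested genes of 6 lists at each of the 5 days (x axis, days after injection, to scale) on the median scale. Each line is 1 list and the shaded band marks day 7, where the B cell list lies at -1.69 and the erythroid list at 0.63.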

How the data were processed

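Whole blood RNA of 12 mice at day 7 (6 90Sr, 6 control) was labeled with Cy3 and hybridized to one-color Agilent whole mouse genome arrays, 1 mouse per array. The authors deposited the processed signal of each spot as an intensity on a linear scale, after background correction and before scaling between arrays. The file headers name Feature Extraction 11.5.1.1, whereas the submitters' processing notes name 10.7. Mean signals and local background intensities were deposited beside it, as were the scanner's flags for detection, saturation and uneven spots. The authors also deposited a table of processed log2 values, 14208 entries for all 56 arrays. Its columns have medians of 4.32 to 5.09 and differ from the log2 scanner signal by a constant within each array. It served as an alternative. The study's methods name median normalization, without saying over which spots.

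Without the control spots, the median log2 signal of 43020 spots was subtracted from each array, and repeated spots of a probe were averaged as log2 values. A probe had to be uniform and above background on more than 75% of the 56 arrays, as 23324 of 39429 probes were. Each of 18802 genes was represented by its brightest probe. Names are those of the array files; 14534 genes were found in the RefSeq table, 961 under another current symbol. Groups were compared with limma 3.58.1 in R 4.3.3 (lmFit, eBayes, two-sided), with a call requiring an unadjusted p under 0.001 and a change of at least 2-fold, after the study's methods. Adjusted p-values are Benjamini-Hochberg over 18802 genes. Array measures were compared by two-sided exact permutation over 924 splits. Where no array of a group had a probe well above background, the fold is a bound: the mean of the brighter group against the lowest signal well above background on each array of the other, or the probe's own signal where higher. The number of arrays limits the precision, and each label names a separate mouse.

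Genes are named by rule: the 15 largest rises and falls among called genes well above background on all 12 arrays, apart between groups and in RefSeq; the first 2 members and the 2 with the largest change of each of 47 gene lists; and genes the study measured by PCR. Where a list had 5 or fewer calls in a direction, its called members were named too, after their values were seen, as were other genes outside the rule. Some genes that the rule names are not reported here. The gene lists and the rule were chosen with earlier results of these data known. Tested on simulated data of the day 7 comparison with 200 of 18802 genes changed, the fit recovered 78% of log2 changes of 1.25, 80% of 1.5 and 96% of 2 and of 3, with 5 false calls. Far fewer genes were changed there than the 2747 called in the data, so these rates need not hold for those calls. Alternatives covered scaling, background correction, filters, slide, scan day, replicate block, thresholds and leaving out each mouse; those that combine a scaling with the slide as a block, and scan day, were chosen after seeing the data.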

Additional observations from a re-analysis of the deposited data

Results flagged for a closer look

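In groups of 6, the highest or lowest mouse stood apart from the others by Dixon's test in 37 of 526 groups tested over the named genes, the gene lists and the array measures, where chance alone gives about 1 in 20. The groups are the same mice measured on related genes and are not independent, so an excess over chance was not tested. All levels here are log2 relative to the array median, and the value of the nearest other mouse of the group follows the first.

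90Sr replicate 6 was the lowest of its group for many genes that fell. It read 3.76 for Iglv1 (nearest 5.05), 2.14 for Il4i1 (3.92), 4.21 for Ms4a1 (5.93), 0.099 for Fcgr2b (1.34) and 7.30 for H2-Ab1 (8.73), which are genes of B cells or of MHC class II. The same mouse was lowest for Gbp3 at 1.39 (2.04), Ndufs8 at 2.42 (3.12), Srsf9 at 2.14 (2.96), Pdia6 at 3.58 (4.56), Syvn1 at 3.87 (4.82), Ctsh at 4.49 (5.81), Hprt at 3.07 (3.81) and Btg2 at 2.65 (3.64). It was the highest for Cox6b2 at 9.27 (8.58) and had the lowest mean level of the lysosome and autophagy list, 5.15 (5.43).

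90Sr replicate 3 was the highest of its group for Cd3d at 6.70 (5.68) and Psmb8 at 5.81 (4.91), and for the mean level of the T cell list, 5.13 (4.71), and of the T cell receptor signaling list, 4.08 (3.66). 90Sr replicate 1 was lowest for Mpo at -1.85 (-0.87), a probe not well above background on any array, and highest for the mean level of the eosinophil and basophil list at 1.59 (0.96). 90Sr replicate 2 was highest for Apaf1 at 0.99 (-0.94) and replicate 4 for Srebf2 at 2.55 (1.05).

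Control replicate 2 was the highest control for Cdca3 at 2.62 (2.15), Klrk1 at 2.18 (0.31), Ahsp at 11.02 (10.59), Urod at 9.26 (8.80), Bbc3 at 4.62 (4.38), Psmc3 at 8.12 (7.89), Fosb at 1.59 (1.34) and Psrc1 at 1.62 (0.91), and the lowest for Ciita at 1.96 (2.98). Ahsp and Urod are red cell genes, and the red cell markers had their highest control mean, 7.23, in this mouse. Control replicate 6 was highest for Itgax at 3.18 (2.87) and had 4 saturated spots (2). Control replicate 5 was lowest for H2-DMb2 at 3.86 (4.04) and for 9630033F20Rik at -0.046 (0.89), and control replicate 3 for Top2a at -0.37 (0.48).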

How the results depend on the processing

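The split of calls depended on the scale more than on any other choice tried. Against 2747 calls (487 higher, 2260 lower), the 75th percentile gave 2692 (2039 and 653), the median of detected probes 2535 (1798 and 737), quantile normalization 1772 (840 and 932), the spike-in probes 14135 (0 and 14135) and normexp background correction 12 (0 and 12). A stricter detection filter gave 1805 (258 higher), the slide as a fixed block 1981 (163 higher) and the scan day as a fixed block 3247 (329 higher and 2918 lower). An adjusted p under 0.05 gave 3276 with the 2-fold limit (774 higher) and 10811 without it (4511 and 6300). With the slide block as well, chosen after seeing the data, quantile normalization gave 1418 (779 lower), the 75th percentile 1391 higher and 569 lower, and the spike-in probes 2 higher. Leaving out 1 mouse gave 2082 (without 90Sr replicate 6) to 3359 (without 90Sr replicate 3) calls, 350 to 608 higher and 1658 to 2823 lower, and 222 of the 487 and 805 of the 2260 lost their call in at least 1 such fit. Replicate numbers do not pair the mice (correlations of same-numbered deviations from -0.147 to 0.25, with 1 of 6 90Sr mice correlating best with its own number), and the replicate block called 2470 genes (414 higher, 2056 lower) and 0 against the other days. The count of genes that differed from the other days was 0, but 1 with the median of detected probes or the stricter filter, 5 after quantile normalization and 14761 on the spike-in scale, and 0 to 5 when a mouse was left out.

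On the spike-in scale, 474 of the 487 called rises were below zero, but 63 with the slide as a block, and of the named ones 4930480K23Rik alone in both. Those below zero without the block were Peg3as -0.22, 4930480K23Rik -0.25 (-0.015 with the slide block), Cdca3 -0.33, Gabre -0.35, Crip2 -0.38, Musk -0.41, Fbxo34 -0.42, Kcnk9 -0.42, Gm813 -0.46, Adam5 -0.46, Slco6b1 -0.48, Nacad -0.49, Add2 -0.50, Ahsp -0.51, Tnnt2 -0.59, Cdkn1a -0.23, Atr -0.81, Cox6b2 -0.55, Urod -0.70, Zbtb16 -0.87, Psrc1 -0.81, Ccnb2 -0.78 and Il1rap -0.85. Atr and Cblb each have 2 probes that differ in sign. Atr was at -0.66 after normexp and -1.06 in the authors' values, and Cblb at 0.98 after quantile normalization, 0.88 under the stricter filter and 0.48 after quantile normalization with the slide block; 8 of 3723 genes with several probes had probes called both ways. Within the shared slide the difference in median log2 signal was -0.74, in the 75th percentile -1.18, in spots well above background -1638 and in spike-in signal -0.041, where 2 against 2 arrays cannot give a p under 0.333. The difference in spots well above background ranged from -2439.2 to -1634.3 when a mouse was left out, and that in saturated spots from -0.23 to 0.77. Over all named genes and alternatives, 6419 values kept their side of the limits, 641 lost the call, 211 gained one and 29 reversed. The cause was not tested. Array signal limits dim genes, which have a bound or no fold where no array of a group had them well above background; elsewhere the number of such arrays is given.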
